A study of Homo sapiens with 6 samples.

Results

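The 10 genes described here encode 3 Notch receptors (NOTCH1, NOTCH2 and NOTCH3), 3 of their ligands (JAG1, JAG2 and DLL1) and 4 transcription repressors of the HES and HEY families (HES1, HES4, HEY1 and HEY2). They were taken by gene symbol from a table of 58051 genes, and each symbol matched 1 row. RNA was sequenced after poly(A) selection from HEK293T, a line of human embryonic kidney cells with the SV40 T antigen. All cells had been transiently transfected with a Lipofectamine reagent and were collected after 48 hours in OptiMEM. The control cells had received the empty plasmid pcDNA3.1- and the others pcDNA3.1-ppk1, from which the bacterial polyphosphate kinase Ppk1 is expressed, with 3 libraries in each group. A letter (B, C or D) marks 1 control and 1 ppk1 library that the series' design text calls matched biological replicates. The study concerns the response of human cells to long polyphosphate chains made inside them, and the comparison asks which transcripts differ when the kinase is present. The labels give the share of transfected cells for neither group, list an HA-tagged ppk1 plasmid only in the general protocol, and give plasmid amounts only as a range over all transfections. The bacterial gene has no row among the human genes of the table, so its own transcript was not analysed here.

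Notch signalling passes between touching cells. A Jagged or Delta-like ligand on one cell binds a Notch receptor on its neighbour, the receptor is cut by ADAM10 and then by γ-secretase, and the freed intracellular domain enters the nucleus. There it joins the DNA-binding protein RBPJ and a Mastermind coactivator and switches on target genes, of which the HES and HEY repressors are the best known. In many tissues these repressors hold back differentiation, and in the embryonic kidney Notch signalling takes part in patterning the nephron.

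None of the 10 genes passed the test between the groups. In edgeR's quasi-likelihood test, with the letters entered as a block, 0 of 10 had a Benjamini-Hochberg adjusted p below 0.05, and the adjusted p-values ran from 0.0943 for HES1 to 0.996 for HEY2. Among all 19574 genes tested, 9.08% were called by the same rule. At an unadjusted p below 0.05 the count was 2 of 10 (HES1 and NOTCH3, both with lower values in ppk1 libraries), against 23.8% of all genes in either direction and 11.6% in the downward direction. DESeq2 also called 0 of the 10 (2 at an unadjusted p below 0.05), against 4.40% of the genes to which it gave an adjusted p. Without the block 0 were called (0 at an unadjusted p below 0.05), against 2.40% of all genes. The median log2 fold change of the 10 genes was -0.10, and that of all genes tested was 0.01. The fitted value was negative for 7 of the 10 and positive for 3.

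Within the fitted model, the precision of these values bounds the changes they allow. Each log2 fold change was given a 95% interval from its standard error in the fit, and the bound farthest from 0 was -0.36, for JAG1. No interval of the 10 genes reached a 1.5-fold change in either direction. The same held in all 12 fits that were run, with other scaling, filters, tools or 1 pair left out. Of the 120 intervals in those fits, 0 passed 1.5-fold, and their outermost bounds were 0.71-fold and 1.35-fold. Smaller differences lie within the intervals and could not be decided with 3 pairs. The model pools scatter over many genes, so an interval reflects the spread of a gene's own pairs only weakly. JAG2 had an SE of 0.08 while its pairs ran from -0.12 to 0.45, and JAG1 0.12 with pairs from -0.43 to 0.06. Intervals from a gene's own 3 pair differences were not computed and could be wider, so the 1.5-fold bound holds only under this pooling.

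**Figure D1:**
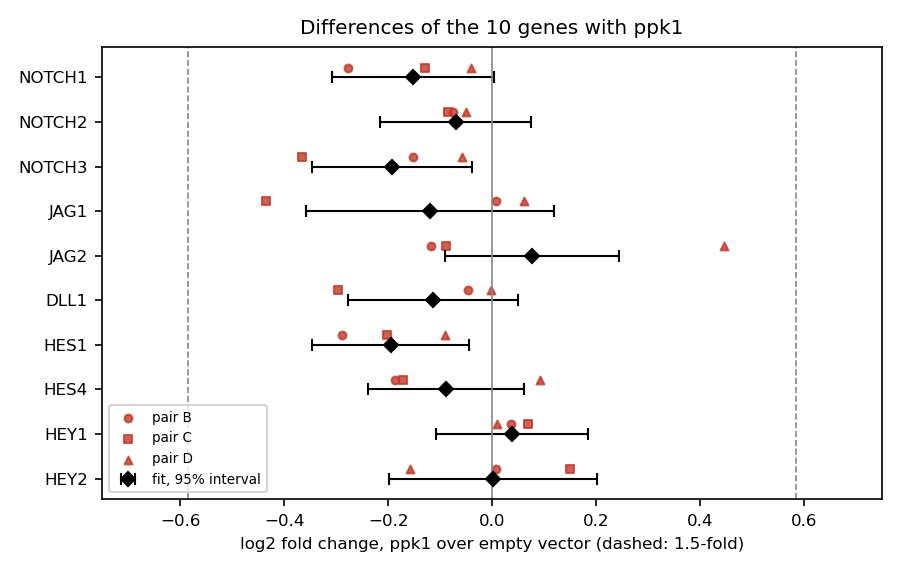
Log2 fold change (ppk1 over empty vector) of each of the 10 genes, with black diamonds for the fitted value, bars for its 95% interval and red symbols for the 3 pairs; dashed lines mark 1.5-fold. All bars lie between the dashed lines, those of HES1 and NOTCH3 lie below 0, and pair D of JAG2 stands at 0.45 while its other pairs are below 0.

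Levels differed far more between the genes than between the groups. Per kilobase of the longest annotated transcript, the empty vector libraries gave HES4 the highest level, 191 ± 22.3 CPM per kb (mean ± SD, n = 3; CPM is the count scaled to a common library size). HEY1 followed at 80.5 ± 0.744 and HES1 at 26.9 ± 3.67 CPM per kb. NOTCH2 had 19.0 ± 0.712, JAG2 13.0 ± 2.16, NOTCH3 9.64 ± 1.04 and DLL1 7.91 ± 0.43 CPM per kb. At the low end NOTCH1 had 3.64 ± 0.486, HEY2 3.52 ± 0.254 and JAG1 0.945 ± 0.0841 CPM per kb. The ranges of neighbours in this order did not overlap over the 3 libraries, except those of NOTCH1 and HEY2. With ppk1 the order was the same apart from NOTCH1 and HEY2, which changed places with overlapping ranges, and the ranges of NOTCH3 and DLL1 then also overlapped. Lengths came from an annotation that may differ from the one the authors used, so an order between close values is uncertain.

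**Figure D2:**
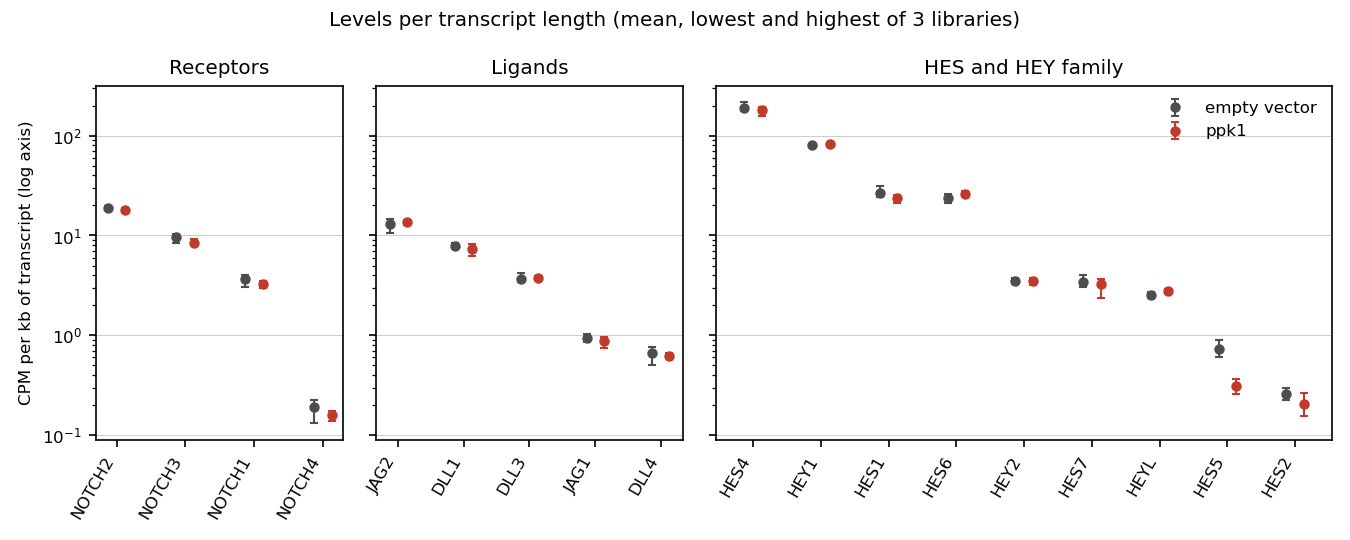
Level per transcript length (CPM per kb, log axis) of Notch receptors, ligands and HES/HEY genes in empty vector (grey) and ppk1 (red) libraries, as the mean with the lowest and highest of 3 libraries. HES4 and HEY1 stand highest, and HES5 is the gene whose red and grey ranges lie farthest apart.

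Among the receptors, the single-pass proteins that release the transcription-activating fragment, NOTCH2 supplied most of the transcripts. It made up 58.6 ± 2.67% of the summed NOTCH1 to NOTCH4 level per kb in the empty vector libraries and 60.4 ± 1.9% with ppk1 (n = 3 each). NOTCH3 made up 29.6 ± 1.59% and 28.1 ± 2.04%, NOTCH1 11.2 ± 0.96% and 10.9 ± 0.673%, and NOTCH4, whose best known role is in vessels, 0.587 ± 0.135% and 0.53 ± 0.0678%. Of the NOTCH2 transcript sequence, 23.44% (in stretches of 50 bases) also occurs in other genes, among them the NOTCH2-derived NOTCH2NLA. This leaves an uncertainty in the share of NOTCH2 that was not measured.

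NOTCH3 (ENSG00000074181, chromosome 19) had 88.4, 89.2 and 73.1 CPM in empty vector libraries B, C and D, and 79.6, 69.2 and 70.2 CPM in the ppk1 libraries. The ppk1 value was the lower one in all 3 pairs, while the groups overlapped because the empty vector library D was low. The log2 fold change was -0.19 (SE 0.08), or 0.875-fold with a 95% interval of 0.787 to 0.974, and edgeR's adjusted p was 0.107. NOTCH1 (ENSG00000148400, chromosome 9) had 37.1, 35.8 and 28.7 CPM without the kinase and 30.6, 32.7 and 27.9 CPM with it. Again each pair was lower with ppk1 and the groups overlapped, with both D libraries at the bottom. Its log2 fold change of -0.15 (SE 0.08) had an adjusted p of 0.224. NOTCH2 (ENSG00000134250, chromosome 1) varied least of the receptors, from 211 to 226 CPM in empty vector and from 201 to 213 CPM in ppk1 libraries, with a log2 fold change of -0.07 (SE 0.07, adjusted p 0.601). All 3 receptors were thus lower with ppk1 in every pair, as were DLL1 and HES1. That pattern held for 5 of the 10 genes, against 21.1% of all genes tested. The share that was higher in every pair was 1 of 10 (HEY1), against 22.6%.

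**Figure D3:**
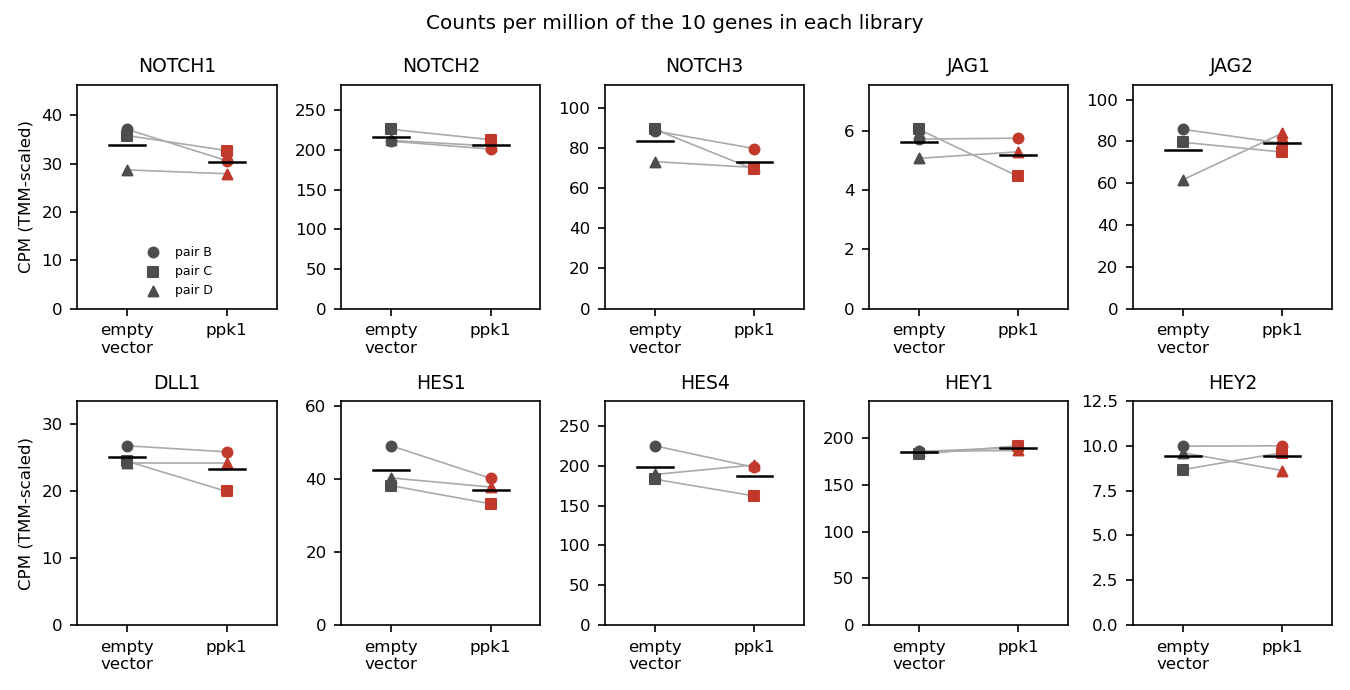
CPM of each gene in the 6 libraries, with empty vector in grey and ppk1 in red, 1 symbol per letter, lines joining matched libraries and a black bar for the group mean; every axis starts at 0. HES1, NOTCH1 and NOTCH3 slope down in all pairs with overlapping groups, HEY1 is flat, and JAG2 slopes up only in pair D.

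The ligands sit on the signal-sending cell, where JAG2 was the most abundant. JAG2 (ENSG00000184916, chromosome 14) had 85.8, 79.6 and 61.6 CPM in empty vector libraries B, C and D and 79.1, 74.9 and 83.9 CPM with ppk1. The low value of the empty vector library D set the sign of the difference. Pairs B and C gave log2 differences of -0.12 and -0.09, and pair D gave 0.45. The fitted value was 0.08 (SE 0.08, adjusted p 0.621), and it turned to -0.125 when pair D was left out. In the annotation used, JAG2 overlaps AL512356.1 on the same strand and shares 6.53% of its sequence with it. This leaves an uncertainty in the JAG2 counts that was not measured.

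DLL1 (ENSG00000198719, chromosome 6), a Delta-like ligand, had 26.7, 24.4 and 24.2 CPM in the empty vector libraries and 25.8, 19.9 and 24.2 CPM in the ppk1 libraries. Library C of the ppk1 group was the low one. The log2 difference was -0.30 in pair C, -0.05 in pair B and close to 0 in pair D, and the fitted value of -0.11 (SE 0.08) had an adjusted p of 0.419. JAG1 (ENSG00000101384, chromosome 20), the ligand mutated in Alagille syndrome, was the gene with the fewest counts of the 10, between 207 and 384 per library. It had 5.72, 6.05 and 5.07 CPM without and 5.75, 4.46 and 5.29 CPM with the kinase. Its difference also came from pair C (-0.43 on the log2 scale, against 0.01 and 0.06 in B and D). The fitted value was -0.12 (SE 0.12, adjusted p 0.582), and it was 0.03 without pair C. An antisense transcript, AL050403.2, overlaps JAG1 on the other strand, and whether the counting used the strand is not given in the sources used here.

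HES and HEY proteins are basic helix-loop-helix repressors, and HES1 and HES5 are classical RBPJ targets. The upstream sequences of 3 HES genes are shown because HES1 and HES4 are the members with the lowest fitted values among the targets and HES5, a relative outside the 10, was the one HES gene called. Each is the 250 bases before the annotated start, from RefSeq on GRCh38.p14, written 5′ to 3′ on the gene's strand. Capitals mark the RBPJ core TGGGAA or, on the opposite strand, TTCCCA. The windows are chr3:194135898-194136147 (+ strand) for HES1, chr1:1000098-1000347 (- strand) for HES4 and chr1:2530264-2530513 (- strand) for HES5.
HES1: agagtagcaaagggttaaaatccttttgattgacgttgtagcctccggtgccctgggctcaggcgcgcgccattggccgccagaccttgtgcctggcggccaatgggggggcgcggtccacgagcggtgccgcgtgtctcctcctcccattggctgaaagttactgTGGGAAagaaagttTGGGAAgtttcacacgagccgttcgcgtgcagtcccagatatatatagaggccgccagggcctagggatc
HES4: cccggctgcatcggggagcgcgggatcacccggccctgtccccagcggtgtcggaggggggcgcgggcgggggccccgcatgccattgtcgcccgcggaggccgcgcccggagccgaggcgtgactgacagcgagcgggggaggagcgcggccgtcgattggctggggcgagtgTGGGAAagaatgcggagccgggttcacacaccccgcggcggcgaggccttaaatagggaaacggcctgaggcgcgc
HES5: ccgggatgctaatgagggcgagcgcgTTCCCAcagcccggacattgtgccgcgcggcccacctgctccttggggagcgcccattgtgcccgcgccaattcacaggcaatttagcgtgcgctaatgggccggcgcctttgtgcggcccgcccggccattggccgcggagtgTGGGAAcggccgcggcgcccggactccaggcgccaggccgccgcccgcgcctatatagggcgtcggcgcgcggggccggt

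HES1 has 2 copies of the core on the same strand, beginning 84 and 70 bases before the start, and HES4 has 1 copy at 76 bases. HES5 has 1 copy at 80 bases and another, on the opposite strand, at 224 bases. The core was searched on both strands, and variant RBPJ sites were neither searched nor marked. Of all 35116 RefSeq windows of this length, 20.8% held it at least 1 time and 2.9% at least 2 times, while the longer GTGGGAA, which contains it, was in 5.4%. Of the 9 HES and HEY genes with a window (all but HEY1), 6 held the core and 3 of these held it more than 1 time. Of the 5 receptor and ligand genes with a window (NOTCH1, NOTCH2, NOTCH3, JAG1 and JAG2), 0 did. A match is a run of letters and not a measured binding site.

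HES1 (ENSG00000114315, chromosome 3), the HES gene most widely used as a Notch readout, had 49.1, 38.2 and 40.3 CPM in empty vector libraries B, C and D. The ppk1 libraries had 40.2, 33.2 and 37.8 CPM. Each ppk1 library was below its partner, by 0.29, 0.20 and 0.09 on the log2 scale, but the ppk1 library B was above the empty vector library C. Library B was the highest of both groups, and the highest library was 1.29 times the lowest in the empty vector group and 1.21 times in the ppk1 group. The log2 fold change was -0.20 (SE 0.08), 0.873-fold with a 95% interval of 0.786 to 0.97, and the adjusted p was 0.0943. In bulk RNA, less HES1 RNA per cell and fewer cells that express it cannot be told apart.

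HES4 (ENSG00000188290, chromosome 1), a close relative of HES1, had 225, 183 and 189 CPM in the empty vector libraries and 198, 162 and 201 CPM with ppk1. Pairs B and C were lower with ppk1 (-0.19 and -0.17 as log2 differences) and pair D was higher (0.09). The fitted value was -0.09 (SE 0.07, adjusted p 0.504). The HEY proteins are best known from the heart and vessels. HEY2 (ENSG00000135547, chromosome 6) had 9.98, 8.67 and 9.62 CPM without and 10.0, 9.62 and 8.62 CPM with the kinase, with 1 pair lower, 1 higher and 1 nearly level. Its log2 fold change was 0.00 (SE 0.10), with a 95% interval from 0.872-fold to 1.15-fold.

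HEY1 (ENSG00000164683, chromosome 8) was the steadiest of the 10 genes across libraries. It had 186, 183 and 186 CPM in the empty vector libraries and 190, 192 and 187 CPM in the ppk1 libraries. The groups did not overlap, which was the case for 1 of the 10 genes and for 25.6% of all genes tested. The separation was small, with a log2 fold change of 0.04 (SE 0.07), 1.03-fold with a 95% interval of 0.928 to 1.14, and an adjusted p of 0.796.

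HES5 (ENSG00000197921, chromosome 1), a target best known from neural progenitors, was the HES gene that changed. It fell from 0.961 ± 0.198 to 0.41 ± 0.0723 CPM (mean ± SD, n = 3). The empty vector libraries B, C and D had 1.17, 0.925 and 0.783 CPM, from 62, 41 and 32 counts, and the ppk1 libraries had 0.479, 0.417 and 0.335 CPM, from 32, 20 and 14 counts. The groups did not overlap, and the drop was alike in the pairs (1.22, 1.08 and 1.13 lower on the log2 scale). The log2 fold change was -1.23 (SE 0.25), 0.428-fold with a 95% interval of 0.301 to 0.608, and edgeR's adjusted p was 0.000718. It was still called without the block (0.0232) and with each pair left out, while DESeq2 gave an adjusted p of 0.084. HES5 made up 0.22 ± 0.0293% of the summed HES and HEY level per kb in the empty vector libraries and 0.098 ± 0.0189% with ppk1, and the summed level itself was 333 ± 29.4 and 322 ± 23.8 CPM per kb.

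The change of HES5 was set against that of the 4 HES and HEY members within each pair, a comparison chosen after the values were seen. HES5 fell by 0.94, 0.87 and 1.04 more than HES1 on the log2 scale in pairs B, C and D. The mean extra difference was -0.95 ± 0.09 (SD) against HES1, -1.06 ± 0.16 against HES4, -1.18 ± 0.07 against HEY1 and -1.14 ± 0.15 against HEY2. All 3 pairs had the same sign in each of the 4 comparisons, which share the same HES5 values and so are not independent. Flipping signs over the 3 pairs (exact permutation test, two-sided) gave p = 0.25 each time, its smallest possible value, so it cannot pass 0.05 here. The other HES and HEY genes were not called: HES6 had a log2 fold change of 0.16 (adjusted p 0.213), HEYL 0.15 (0.374), HES7 -0.07 (0.757) and HES2 -0.31 (0.415). HES3 had too few counts to be tested.

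The rest of the pathway was read from a list of 76 other genes in 9 roles, of which 72 could be tested and 4 (DLK1, DTX1, HES3 and PTCRA) had too few counts. In this list 4 genes were called, all lower (0 higher). That is 4 of 72, against 9.08% of all genes called in either direction and 5.04% called lower. At an unadjusted p below 0.05, 18 of 72 stood against 23.8% of all genes, and the 7 lower ones against 11.6%, so both counts were near the background. The other 11 were higher. DESeq2 called FBXW7 and BHLHE40 and no other gene of the list. The median log2 fold change was 0.03.

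In receptor cleavage 1 of 9 genes was called, against 9.08% of all genes tested, and it was the ligand-triggered protease. ADAM10 (ENSG00000137845, chromosome 15) had 55.5, 59.6 and 67.5 CPM in empty vector libraries B, C and D and 52.0, 49.1 and 51.2 CPM with ppk1, without overlap. It fell by 0.26 on the log2 scale (SE 0.08, adjusted p 0.0261). The call was lost without the block (0.117), in DESeq2 (0.064) and without pair C (0.456) or D (0.0867). An antisense neighbour, AC018904.1, overlaps ADAM10 on the other strand. It could add to the ADAM10 counts if the counting ignored the strand, which is not given in the sources used here. The γ-secretase genes PSEN2, NCSTN, APH1A, APH1B and PSENEN, the related protease ADAM17 and the convertase FURIN were not called, with log2 fold changes from -0.11 (ADAM17) to 0.18 (PSEN2).

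Among 11 tested genes that regulate the receptor or its fragment (NUMB, ITCH, Deltex and related genes), FBXW7 was the one called. That is 1 of 11, against 9.08% of all genes tested. FBXW7 (ENSG00000109670, chromosome 4), the substrate receptor of a ubiquitin ligase that marks the Notch intracellular domain and other proteins for destruction, had 53.7, 52.2 and 51.3 CPM without and 45.1, 40.5 and 44.2 CPM with the kinase. These groups did not overlap either. FBXW7 fell by 0.28 on the log2 scale (SE 0.08, adjusted p 0.0119), and its adjusted p was 0.0635 without the block and 0.495 without pair C. It also has an antisense partner, FBXW7-AS1.

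BHLHE40 (ENSG00000134107, chromosome 3), a repressor of a related family, was the other called gene of the 8 tested relatives of HES and HEY. With HES5 that made 2 of 8, both lower, against 9.08% of all genes called in either direction and 5.04% called lower. BHLHE40 had 140, 84.9 and 79.9 CPM in the empty vector libraries and 98.4, 59.2 and 80.2 CPM with ppk1. Pairs B and C differed by -0.50 and -0.52 on the log2 scale and pair D by 0.00, and library B was again the highest of both groups. BHLHE40 fell by 0.34 on the log2 scale (SE 0.08, adjusted p 0.00395). It was not called without the block (0.359) or without pair C (0.41), and it has an antisense partner, BHLHE40-AS1.

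In the nuclear complex 0 of 9 genes were called, against 9.08% of all genes tested. At an unadjusted p below 0.05 there were 4 of 9, 2 in each direction, against 23.8% of all genes. RBPJ (ENSG00000168214, chromosome 4), the DNA-binding partner of every Notch receptor, had 134, 120 and 124 CPM in the empty vector libraries and 123, 107 and 113 CPM with ppk1. Each pair was lower, the groups overlapped slightly, and the log2 fold change of -0.14 (SE 0.07) had an adjusted p of 0.241. The Mastermind coactivators had values of both signs. MAML2 had a log2 fold change of -0.39 (adjusted p 0.052), MAML3 -0.25 (0.121) and MAML1 0.15 (0.215).

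Corepressors, which keep target genes silent with RBPJ or act with HES proteins, had 0 of 14 genes called, against 9.08% of all genes. At an unadjusted p below 0.05 there were 5 of 14, against 23.8% of all genes. Their fitted values were positive for 12 of 14, with a median log2 fold change of 0.09, against 0.01 for all genes tested. The share of positive values among all genes was not counted, so 12 of 14 has no background beside it. The groups did not overlap for 7 of the 14, against 25.6% of all genes tested. In all 3 pairs 7 of the 14 were higher with ppk1, against 22.6%, and 1 was lower, against 21.1%. TLE1, a partner of HES proteins, had 0.19 (adjusted p 0.105) and TLE2 had -0.26 (0.157). The 6 tested other targets had 0 calls, against 9.08% of all genes, and 2 were at an unadjusted p below 0.05, against 23.8%. NRARP, a target that dampens the receptor's activity, had 45.5, 43.7 and 39.8 CPM without and 50.5, 48.3 and 51.8 CPM with the kinase. Its groups did not overlap, in the direction opposite to HES5, and its log2 fold change of 0.22 (SE 0.08) narrowly missed the threshold (adjusted p 0.054). The other receptors and ligands (5 tested), the enzymes of receptor glycosylation (5) and of ligand ubiquitination (5) had 0 calls. At an unadjusted p below 0.05 these roles had 0, 1 and 0 genes. The shares of all genes, 9.08% and 23.8%, apply here too, and counts in 5 or 6 genes cannot be told apart from them. Groups without overlap were found for 16 of the 72 listed genes, which is no larger a share than the 25.6% of all genes tested. Of these 16, 7 were corepressors.

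**Figure D4:**
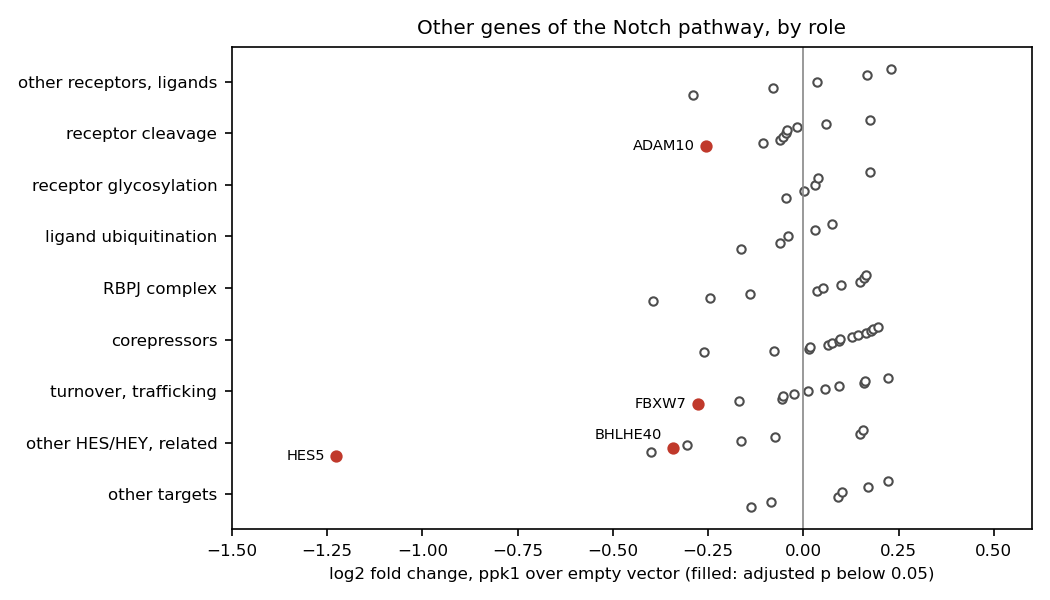
Log2 fold change (ppk1 over empty vector) of the 72 other tested Notch pathway genes, 1 row per role, with filled red points for adjusted p below 0.05. HES5 stands alone at -1.23, and the other called genes lie between -0.34 and -0.26. Of the 14 corepressors 12 lie above 0, and 0 were called.

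The number of called members depended on 2 settings. Per-library offsets for GC content and transcript length, which called 14.8% of all genes, called 3 of the 10: NOTCH3 (log2 fold change -0.24, adjusted p 0.00629), NOTCH1 (-0.20, 0.019) and HES1 (-0.19, 0.0273). Without pair D, 9.06% of all genes were called, and NOTCH3 (-0.28, adjusted p 0.00685) and HES1 (-0.27, 0.0175) were among them. Without pair B 0 of the 10 were called (1 at an unadjusted p below 0.05), against 12.5% of all genes, and without pair C 0 (0 at an unadjusted p below 0.05), against 2.06%. Over all 12 fits the log2 fold change of HES1 ran from -0.27 to -0.15 and that of NOTCH3 from -0.28 to -0.105.

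**Figure D5:**
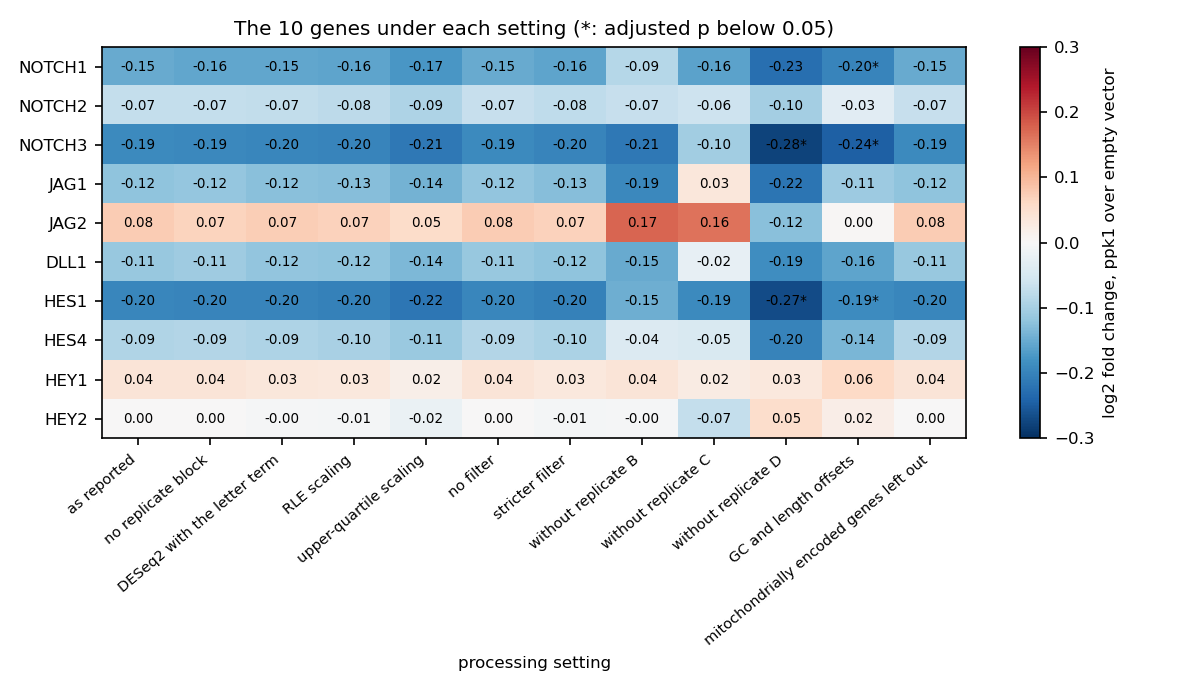
Log2 fold change (colour and number) of the 10 genes in the reported fit and under 11 other settings, with an asterisk for adjusted p below 0.05. NOTCH1, NOTCH2, NOTCH3, DLL1, HES1 and HES4 are negative in every column, and the asterisks fall in the columns without pair D and with GC and length offsets.

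Likeness of pattern was measured for HES1 and NOTCH3, the members with the smallest adjusted p, as the root mean square difference of centred log2 CPM over the 6 libraries. Among 13765 candidate genes, all averaging 50 normalized counts or more, the nearest to HES1 were H1F0 (0.0294), PAXIP1-AS1 (0.031) and EXD3 (0.037), where the median gene had 0.211. The nearest to NOTCH3 were CYP26A1 (0.034), RTN4RL1 (0.0355) and SUSD6 (0.0379), where the median gene had 0.195. None of these 6 genes was called, with adjusted p-values from 0.0664 (H1F0) to 0.397 (RTN4RL1).

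Sequencing depth was between 40851783 and 67122986 counts per library, and each of the 10 genes had at least 207 counts in every library. All 7 genes chosen as typical of HEK293T cells (VIM, KRT8, KRT18, NEFL, NEFM, PAX2 and LHX1) were expressed. Their sums were 767 to 893 CPM in empty vector and 738 to 786 CPM in ppk1 libraries. VIM had 478 to 538 CPM, PAX2 2.55 to 3.64 CPM and LHX1 3.75 to 4.76 CPM, so the sums mostly reflect VIM. KRT18 was called higher (adjusted p 0.0113) and NEFL lower (0.00793), and their part in the Notch gene values was not tested. Of 4 endothelial markers 0 could be tested, with summed levels of 0.0677 to 0.22 CPM in empty vector and 0.21 to 0.292 CPM in ppk1 libraries. Among them VWF had 0 counts in every empty vector library and 3 to 7 in the ppk1 libraries. Of the blood markers, CD14 had 0.563 to 0.813 CPM and was not called, while PTPRC and CD3E had at most 4 counts in a library. Of the fibroblast markers COL1A1 was present at 15.4 to 20.6 CPM, while COL1A2 and DCN had at most 3 counts in a library and LUM at most 1.0 CPM.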

How the data were processed

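The authors deposited 1 table of raw read counts per Ensembl gene (58051 genes, 6 libraries), per the file headers with 1 column per library. The submitters' processing notes name bcl2fastq 2.20, Trimmomatic, STAR, HTSeq, edgeR, DESeq, Cufflinks and Cuffdiff without saying which step used which. The genome build, the annotation and the use of strand are not given in the sources used here. Per the labels' protocols the libraries were poly(A)-selected and made with a directional kit. All 6 columns were matched to a sample by name.

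All genes were tested with edgeR 4.0.16 (glmQLFit, glmQLFTest) in R 4.3.3, after filterByExpr (minimum count 10) and TMM scaling, with the letter as a block and Benjamini-Hochberg adjustment at 0.05. The design text gives the pairing. Deviations from the group means correlated across genes at 0.109 (B), 0.135 (C) and 0.0476 (D) within letters and from -0.12 to -0.00506 between them. The dispersion was shared across genes (47.5 prior degrees of freedom), and 95% intervals use the standard error and the fit's degrees of freedom. CPM are TMM-scaled, and pair differences use log2 CPM with a prior count of 2. The code was tested on simulated data. The alternatives included DESeq2 1.42.0 and smooth GC and length offsets (mgcv 1.9.3). Lengths, GC content, overlaps and shared sequence came from GENCODE release 29, which held 98.96% of the identifiers.

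The members and lists were chosen with earlier results of these data known. All 10 members are named, and of the other pathway genes those called, plus RBPJ; further genes named with values (such as NRARP, MAML2 and TLE1) were chosen after their values were seen. In the reported fit, a p-value sets the difference against the variation of these libraries that remains after the letters, with a dispersion shared across genes.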

Additional observations from a re-analysis of the deposited data

How the results depend on the processing

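Of the 110 values of the 10 members under 11 alternatives, 97 kept direction and call, 5 passed the threshold and 8 changed sign. The number of called members was 0 in the reported fit, 0 without the replicate block, 3 with GC and length offsets, and between 0 (without B or C) and 2 (without D) when a pair was left out. The sign changes were in HEY2, JAG1 and JAG2. HEY2 was -0.00328 in DESeq2, -0.00569 with RLE scaling, -0.0207 with upper-quartile scaling, -0.0053 with the stricter filter (a mean of 50 counts), and between -0.0713 and 0.0539 when a pair was left out. JAG1 ran from -0.218 (without D) to 0.0334 (without C), and JAG2 from -0.125 (without D) to 0.175 (without B). The other pathway genes called were 4 in the reported fit, 1 (HES5) without the replicate block (2.40% of all genes), 2 in DESeq2 (69 of the 72 had an adjusted p; 4.40%), 9 with GC and length offsets (14.8%), and from 1 (HES5, without C; 2.06%) to 9 (without B; 12.5%) with a pair left out. For all of these the cause was not tested. The values of ADAM10, FBXW7, HES5, BHLHE40 and RBPJ kept their direction in all 54 refits that gave an adjusted p, with 9 lost calls. HES5 had a mean of 33.5 counts and fell under the stricter filter, so it has no value there. Its low count limits the precision of its fold change.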
